A study of Mus musculus with 6 samples.

Results

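The 10 genes described here encode the NF-kB transcription factor and proteins that restrain or release it: the subunits Rela, Relb, Rel, Nfkb1 and Nfkb2, the inhibitors Nfkbia, Nfkbib and Nfkbiz, the ubiquitin-editing enzyme Tnfaip3 (A20) and the kinase Ikbkb. Each was taken as the row of the deposited count table whose symbol equalled the gene name, which gave 10 of 22183 genes, all of them with enough reads to be tested. Transcripts were measured by RNA sequencing in cells isolated as peritoneal endothelial cells (ECs) from 3 saline mice and 3 PD mice, with 1 library per mouse. Both groups were wild-type young adult male C57BL/6J mice that received a daily intraperitoneal injection for 6 weeks. It was either saline or glucose-based peritoneal dialysis (PD) fluid, and the comparison addresses how transcripts in the isolated cells differ with PD fluid. According to the sample labels the cells were enriched magnetically by CD31, whereas the supplementary methods describe sorting of mesenteric cells that carry CD31 and lack CD45.

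NF-kB acts as a dimer of Rel proteins, which an inhibitor of the IkB family keeps in the cytoplasm of resting cells. In the canonical pathway, cytokines such as TNF and IL-1 activate the IkB kinase (IKK) complex, IkB is phosphorylated and degraded, and dimers such as RelA with p50 enter the nucleus. In the non-canonical pathway, receptors such as the lymphotoxin beta receptor lead to processing of the Nfkb2 product and to RelB dimers. Genes for IkBalpha (Nfkbia), A20 (Tnfaip3) and IkBzeta (Nfkbiz) are themselves well-known targets of NF-kB, so that their transcripts are often read beside those of the adhesion molecules and chemokines that NF-kB induces in endothelium.

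Between 21973426 and 26374292 reads per mouse were assigned to genes, and levels are given as CPM, that is counts relative to the library total after TMM scaling. Genes with few reads were removed, which left 14005, and each was compared between the groups by the quasi-likelihood F-test of edgeR, its p-values adjusted by the Benjamini-Hochberg method. At an adjusted p of 0.05, 58.9% of these genes passed, 31.1% being higher and 27.8% lower in PD mice. The libraries also held transcripts of other cells, and the changes below are those of the mixture. Per length, Ptprc, which encodes CD45, was at 624 ± 30.2 FPKM in saline and 392 ± 7.73 FPKM in PD mice (SD, n = 3 each), Pecam1, which encodes CD31, at 145 ± 4.44 and 158 ± 5.11 FPKM, and Cdh5, the VE-cadherin gene, at 4.72 ± 0.715 and 8.37 ± 0.365 FPKM. All 8 B cell markers and 6 of 8 T cell markers were lower in PD mice, while all 8 macrophage and monocyte markers, 11 of 12 endothelial markers, 5 of 6 tested neutrophil markers and all 8 each of the mesothelial, fibroblast and mural cell (pericyte and smooth muscle) markers were higher, as were the 7 tested of 8 markers of pancreatic acinar cells (Ptf1a, at 0 in all saline mice, was too low to be tested). In such bulk samples, fewer cells of a type and less RNA per cell cannot be told apart.

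Promoter sequences are shown because NF-kB is known to act on several of its own genes, Nfkbia and Tnfaip3 among them. RefSeq windows on GRCm38.p6, from 250 bases before to 50 after an annotated start, were at hand for 6 of the 10 genes, namely Rela, Rel, Nfkb2, Nfkbia, Nfkbib and Tnfaip3. Both strands were searched for the NF-kB consensus site (the kappa B site, of 10 bases) and for a narrower form, GGG, 2 free bases and TTTCC, which overlaps it. At least 1 window of Rel, Nfkb2, Nfkbia and Tnfaip3 held a match to both, and the windows of Rela and Nfkbib held neither. Of all 32851 RefSeq windows of this length, 4.51% held the consensus and 1.63% the narrow form. Counted by gene, as for the members, 6.29% of the tested genes with a window held the consensus and 2.12% the narrow form. The 250 bases before the start are printed along the strand of the gene, 5′ to 3′, with consensus matches on either strand in capitals, first for Rela, as an example without a match, and then for the genes with one.
Rela promoter, chr19:5637291-5637540, plus strand: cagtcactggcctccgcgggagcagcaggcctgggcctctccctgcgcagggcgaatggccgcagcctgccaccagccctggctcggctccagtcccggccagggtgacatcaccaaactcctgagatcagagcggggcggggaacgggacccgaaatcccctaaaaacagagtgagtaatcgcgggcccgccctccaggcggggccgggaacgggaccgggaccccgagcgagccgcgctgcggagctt
Rel promoter, chr11:23770970-23771219, minus strand: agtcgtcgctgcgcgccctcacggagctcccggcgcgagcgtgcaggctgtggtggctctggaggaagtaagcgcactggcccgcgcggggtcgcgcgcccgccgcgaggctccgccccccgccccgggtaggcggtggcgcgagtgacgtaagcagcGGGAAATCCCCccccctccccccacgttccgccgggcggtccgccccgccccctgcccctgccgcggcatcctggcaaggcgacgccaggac
Nfkb2 promoter, chr19:46304487-46304736, plus strand: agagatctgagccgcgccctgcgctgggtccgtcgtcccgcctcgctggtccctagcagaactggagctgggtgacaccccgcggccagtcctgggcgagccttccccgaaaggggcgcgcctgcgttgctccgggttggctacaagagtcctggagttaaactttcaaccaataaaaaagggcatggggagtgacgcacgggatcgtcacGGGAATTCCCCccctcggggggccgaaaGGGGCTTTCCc
Nfkbia promoter, chr12:55492648-55492897, minus strand: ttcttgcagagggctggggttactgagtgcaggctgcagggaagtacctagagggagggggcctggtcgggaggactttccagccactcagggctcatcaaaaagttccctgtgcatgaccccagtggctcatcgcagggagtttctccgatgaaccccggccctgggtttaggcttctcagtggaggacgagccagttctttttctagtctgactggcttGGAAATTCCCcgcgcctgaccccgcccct
Tnfaip3 promoter, chr10:19015411-19015660, minus strand: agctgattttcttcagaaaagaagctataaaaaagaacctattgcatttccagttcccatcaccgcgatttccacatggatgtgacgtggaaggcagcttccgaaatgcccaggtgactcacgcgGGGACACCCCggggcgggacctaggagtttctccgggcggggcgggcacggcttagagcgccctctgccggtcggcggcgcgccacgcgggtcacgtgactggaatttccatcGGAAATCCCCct
The match of Nfkbia, GGAAATTCCC, lay at bases -29 to -20 from the start. In the printed window of Tnfaip3 the matches lay at -125 to -116 and at -12 to -3, the second being GGAAATCCCC. The other Tnfaip3 window held no match. In its printed window Nfkb2 held GGGAATTCCCC at -39 to -29 and GGGGCTTTCC at -11 to -2. Its 2 further windows, at downstream starts, overlap and shared 1 site, GGGACTTTCC. That site lay after the start, at 11 to 20, in the first of them and at -225 to -216 in the second. The first also held GGAATGTCCC at -236 to -227. Rel, which fell, held 1 run of 11 bases, GGGAAATCCCC, at -92 to -82. A match describes letters in these windows and not binding. For the Nfkbib window and 1 downstream Nfkb2 window, no GENCODE transcript of the gene held the bases just after the annotated start.

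**Figure D1:**
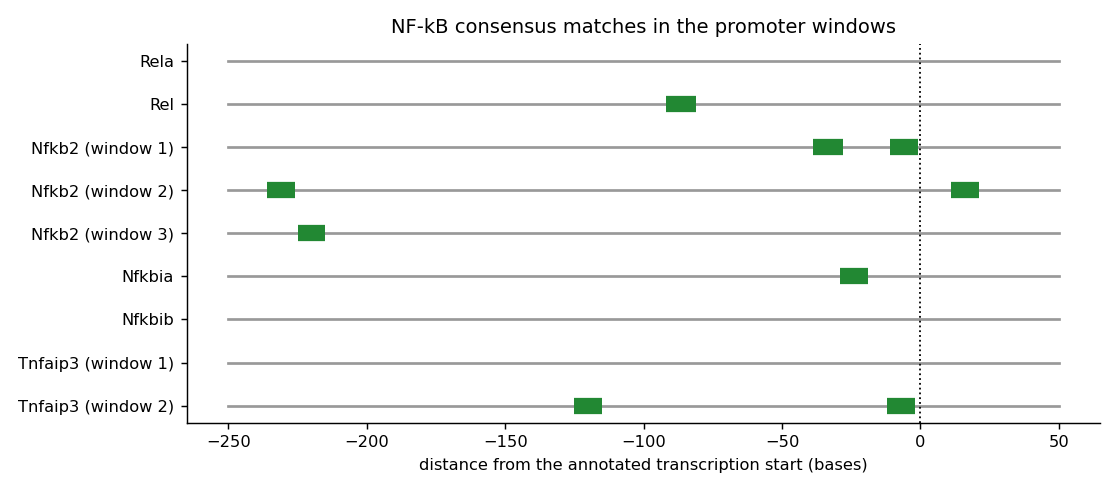
Each grey line is 1 RefSeq promoter window of a member, drawn by distance in bases from the annotated transcription start (dotted line), and green blocks are matches to the NF-kB consensus on either strand. Rel, Nfkb2, Nfkbia and 1 window of Tnfaip3 have a match, and the other window of Tnfaip3 and the windows of Rela and Nfkbib have none.

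With TMM scaling 6 of the 10 genes rose in PD mice and 2 fell (edgeR, p adjusted over all 14005 genes), where 31.1% of all tested genes rose and 27.8% fell. Nfkbiz, Tnfaip3, Nfkbia, Nfkb2, Relb and Rela rose, Rel and Ikbkb fell, and Nfkb1 and Nfkbib did not pass the test. The values of the groups did not overlap for the same 8 genes, where 65.6% of all tested genes did not overlap, 34.0% with PD mice higher and 31.6% with PD mice lower. The median log2 fold change of the 10 genes was 0.51, beside 0.02 for all tested genes. These directions depend on the scale. With libraries scaled to 12 endothelial marker genes instead of TMM, the median of all genes moved to -0.90, 2 members (Nfkbiz and Tnfaip3) were higher and 6 (Rel, Ikbkb, Nfkbib, Nfkb1, Rela and Relb) were lower in the same edgeR test, where 8.94% of all tested genes were higher and 70.7% lower. Relative to the median gene under that scaling, the 6 genes that rose with TMM lay between 0.39 and 1.26 above it and Nfkb1 lay 0.04 above it. Nfkbib lay at -0.0015, Ikbkb at -0.30 and Rel at -0.69. A change of scale shifts all genes by about the same amount. These distances were therefore bound to be nearly those found with TMM and are no second check of the rises.

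**Figure D2:**
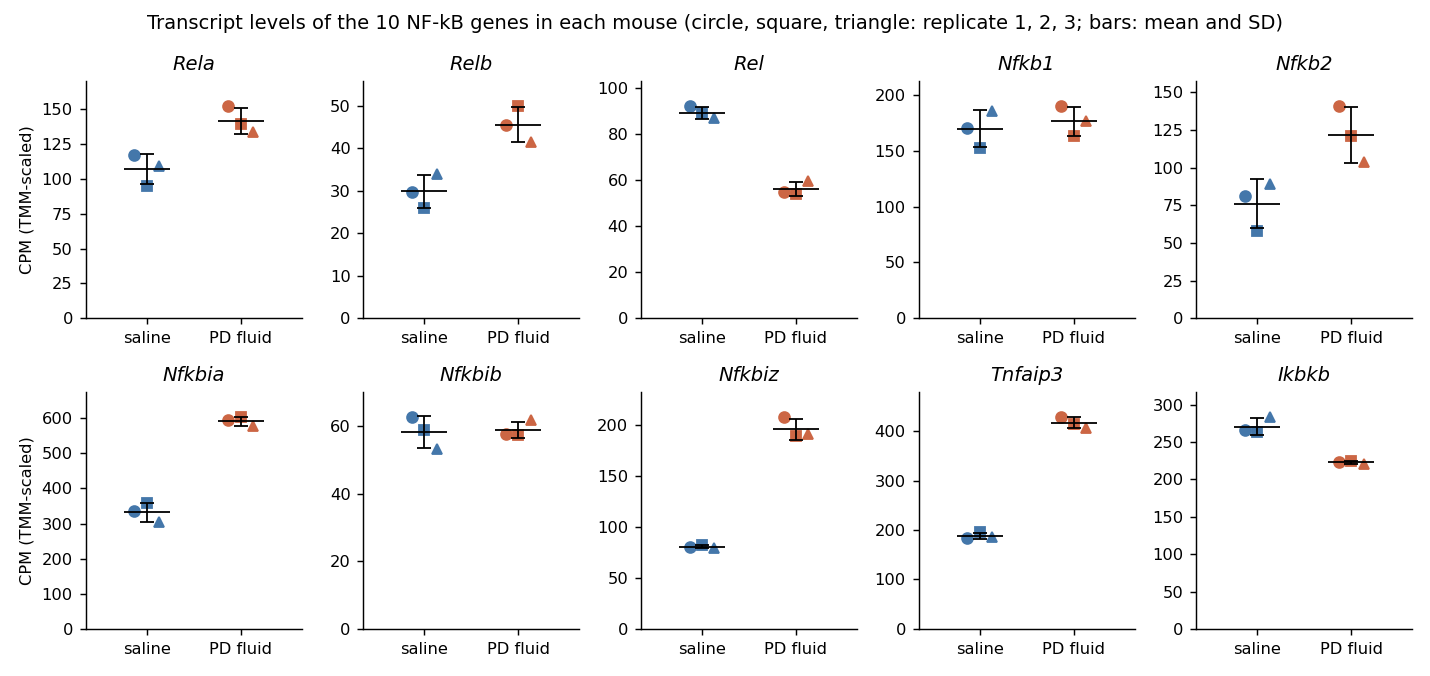
Each panel shows 1 gene, with CPM from 0 on the vertical axis and the 3 saline (blue) and 3 PD mice (orange) as points, and with mean and SD as black bars. With this TMM scaling, Nfkbiz, Tnfaip3 and Nfkbia are higher in every PD mouse by a wide gap (Nfkbia is at a log2 fold change of -0.088 with endothelial marker scaling), Rel is lower in every PD mouse, and Nfkb1 and Nfkbib overlap.

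Among the subunits, Nfkb2, whose product p100 is processed to p52, was at 80.9, 57.7 and 89.2 CPM in saline mice 1 to 3 and at 141, 121 and 103 CPM in PD mice 1 to 3. All PD mice lay above all saline mice, although the spread within each group was wide. The rise was 0.68 ± 0.15 (SE) as a log2 fold change (adjusted p = 0.00259, edgeR), whereas it was -0.23 with endothelial marker scaling. Relb, the partner of p52 in the non-canonical pathway, was at 29.8, 26.0 and 33.9 CPM against 45.4, 49.9 and 41.6 CPM. The groups again did not overlap. As a log2 fold change this was 0.61 ± 0.11 (SE), with an adjusted p of 0.000759 (edgeR), against -0.30 with endothelial marker scaling. Rela, which encodes p65, the main activating subunit of the canonical pathway, was at 117, 95.3 and 109.6 CPM in saline mice and at 152, 139.6 and 134 CPM in PD mice. Every PD mouse was above every saline mouse, and the rise was 1.32-fold, a log2 fold change of 0.40 ± 0.085 (SE) with TMM (adjusted p = 0.00195, edgeR) and of -0.51 with endothelial marker scaling.

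Nfkb1, which encodes p105 and its product p50, the usual partner of p65, did not pass the test. It was at 171, 153 and 186 CPM in saline mice and at 190.0, 164 and 177 CPM in PD mice, so that the groups overlapped. On the log2 scale the difference was 0.06 with a 95% interval from -0.11 to 0.22 (adjusted p = 0.582, edgeR), whereas endothelial marker scaling gave -0.86 (adjusted p = 1.73e-07, edgeR).

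Rel, which encodes c-Rel, a subunit best known from lymphocytes, was the only subunit gene that fell with TMM, while Rela, Relb and Nfkb1 were called lower as well with endothelial marker scaling. It was at 92.1, 89.1 and 87.0 CPM in saline mice and at 55.0, 54.1 and 59.7 CPM in PD mice. The mice of each group lay close together, with a wide gap between the groups. Rel fell to 0.629 times its saline level, a log2 fold change of -0.67 ± 0.071 (SE) by edgeR (adjusted p = 1.74e-05), and of -1.58 with endothelial marker scaling. Beside it, Ptprc had a log2 fold change of -0.69, and the 8 B cell markers one of -0.69 to -1.27, with their summed level between 6035 and 6335 CPM in saline mice and between 2831 and 2847 CPM in PD mice. The T cell markers summed to between 2982 and 3082 CPM and to between 2117 and 2368 CPM, respectively. None of the B and T cell markers was at 0 in any group, and their part in the fall of Rel was not tested.

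The feedback genes Nfkbiz, Tnfaip3 and Nfkbia showed the largest changes among the members with TMM, whereas with endothelial marker scaling the largest were those of Rel (-1.58) and Ikbkb (-1.19). Nfkbiz, whose product IkBzeta acts in the nucleus as a co-regulator of a subset of NF-kB targets, was at 80.2, 82.2 and 79.5 CPM in saline mice and at 208, 189 and 191 CPM in PD mice. The saline mice were almost level, and all PD mice lay far above them. Nfkbiz rose 2.43-fold, which is 1.28 ± 0.064 (SE) on the log2 scale (adjusted p = 4.12e-08, edgeR) and 0.36 with endothelial marker scaling. Tnfaip3, whose product A20 removes activating ubiquitin chains and so dampens signalling to IKK, was at 183, 195 and 186.5 CPM against 428, 415 and 407 CPM. The groups lay far apart, and Tnfaip3 rose 2.21-fold, by 1.15 ± 0.058 (SE) on the log2 scale (adjusted p = 4.60e-08, edgeR), or by 0.23 with endothelial marker scaling. Nfkbia, which encodes IkBalpha, the inhibitor resynthesised after each round of activation, was at 335, 358 and 303 CPM in saline mice and at 594, 603 and 576 CPM in PD mice. No values overlapped, and the rise was 1.78-fold, or 0.83 ± 0.069 (SE) on the log2 scale (adjusted p = 2.53e-06, edgeR), whereas under endothelial marker scaling the difference was -0.088 (adjusted p = 0.427, edgeR).

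Nfkbib, the gene for IkBbeta, which is not known for the rapid resynthesis of IkBalpha, was at 62.6, 58.8 and 53.1 CPM in saline mice and at 57.6, 57.4 and 61.6 CPM in PD mice. The PD values fell inside the range of the saline values, and the log2 difference of 0.02 had a 95% interval from -0.14 to 0.18 (adjusted p = 0.876, edgeR), whereas endothelial marker scaling gave -0.90 (adjusted p = 3.60e-07, edgeR). Markers of several other cell types, and immediate early genes, were higher in the same PD mice as the feedback genes. The summed level of the 8 macrophage and monocyte markers went from between 2158 and 2290 CPM to between 8923 and 9626 CPM, that of 7 neutrophil markers (Ly6g among them too low to be tested) from between 35.4 and 40.5 CPM to between 295 and 305 CPM, and that of 12 immediate early and stress genes from between 6992 and 7468 CPM to between 14147 and 14253 CPM, with 11 of these 12 called higher. Mesothelial markers summed to between 15.1 and 19.1 CPM in saline and between 161 and 188 CPM in PD mice, fibroblast markers to between 94.95 and 103 and between 853 and 889 CPM, mural cell markers to between 280 and 299 and between 453 and 501 CPM, and acinar markers to between 2.03 and 4.52 and between 3980 and 4072 CPM. The 12 endothelial markers rose from a sum of 1195 to 1211 CPM to one of 1908 to 2018 CPM. The part of these transcripts in the rise of the feedback genes was not tested.

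**Figure D3:**
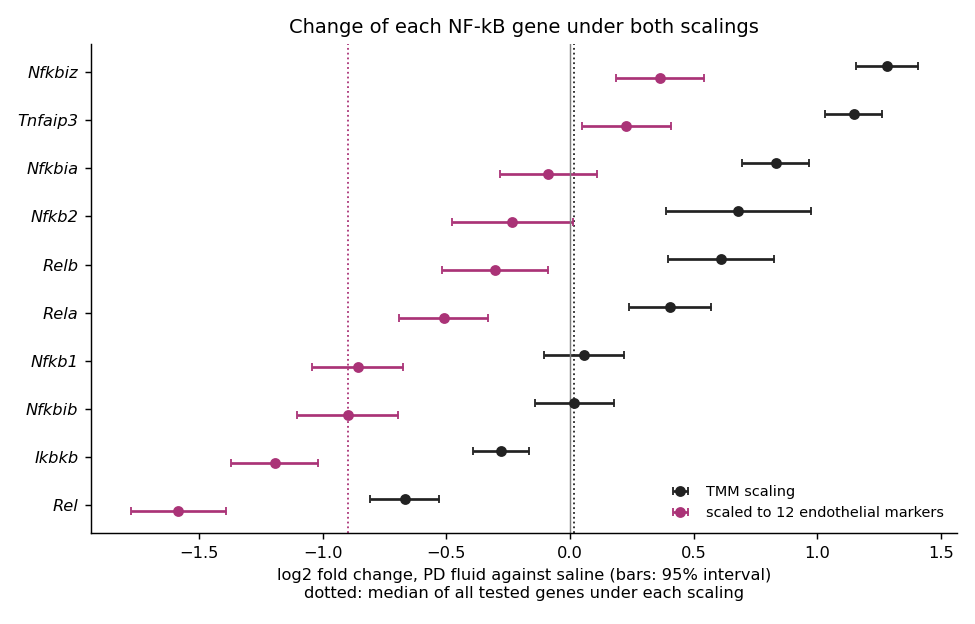
Points are log2 fold changes of PD against saline mice with their 95% intervals, in black with TMM scaling and in purple with scaling to 12 endothelial markers, and dotted lines mark the median of all tested genes at 0.02 and -0.90. The purple points are shifted to lower values by about the same amount for every gene. The order of Nfkbiz, Tnfaip3, Nfkbia, Nfkb2, Relb and Rela, from top to bottom, is therefore the same under both scalings by construction.

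Ikbkb, which encodes IKKbeta, the kinase that phosphorylates IkB, was at 266, 263 and 283 CPM in saline mice and at 223, 225 and 221 CPM in PD mice. All PD mice were below all saline mice. Ikbkb fell to 0.824 times its saline level, a log2 fold change of -0.28 ± 0.058 (SE) by edgeR (adjusted p = 0.00187), and of -1.19 with endothelial marker scaling. The genes of its partners in the IKK complex fell as well. Chuk, the gene for IKKalpha, went from 150.1 ± 11.1 to 109 ± 2.56 CPM (SD, n = 3 each), which is -0.46 on the log2 scale (adjusted p = 0.000226, edgeR). Ikbkg, the gene for the scaffold NEMO, went from 124 ± 6.53 to 80.8 ± 5.76 CPM, which is -0.61 (adjusted p = 5.00e-05, edgeR). With endothelial marker scaling Chuk was at -1.38 and Ikbkg at -1.53. Beside these genes Ptprc had a log2 fold change of -0.69 with TMM, while all 8 macrophage and monocyte markers were higher. The part of leukocyte transcripts in the falls of the IKK genes was not tested.

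Levels can be compared between the genes only per length, for which the FPKM values deposited by the authors were used. Nfkbia led in both groups, at 209.6 ± 15.6 FPKM in saline and 376 ± 16.8 FPKM in PD mice (SD, n = 3 each), and no other member reached its lowest value. In saline mice Ikbkb followed at 77.6 ± 4.55 FPKM, above Nfkb1, Nfkbib, Tnfaip3 and Rela, whose means ran from 51.1 down to 39.9 FPKM and whose neighbours in that order overlapped. Nfkb2 at 24.3 and Nfkbiz at 22.1 FPKM overlapped as well, and Relb at 14.5 FPKM lay above Rel at 11.9 FPKM, which was lowest. In PD mice Tnfaip3 stood second at 101 ± 4.72 FPKM, above Ikbkb at 65.4 FPKM, and Nfkbiz at 54.2 FPKM overlapped Nfkb1, which overlapped Rela. Relb at 22.3 FPKM and Rel at 7.56 FPKM remained the lowest. Values of Relb and Rel overlapped in neither group, although in saline mice the lowest Relb value (12.35 FPKM) was barely above the highest of Rel (12.32 FPKM). By mean level Tnfaip3 thus stood in the fifth place in saline mice and in the second in PD mice.

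Ratios of 2 genes within a mouse do not depend on how libraries are scaled. They were compared on the log2 scale by a two-sided exact permutation test, which for 3 mice against 3 allows no p under 0.1. Of 7 ratios, 6 did not overlap between the groups and had this smallest p (p = 0.1, exact permutation test, 0.117 after Benjamini-Hochberg adjustment over the 7). Of single tested genes, 65.6% did not overlap. The share over other pairs of genes was not computed, and the part of the cell mix in these ratios was not tested. The ratio of Rel to Rela moved most. Its log2 value was -0.34, -0.10 and -0.33 in saline mice and -1.47, -1.37 and -1.17 in PD mice, so that the ratio in PD mice was 0.474 times that in saline mice. Nfkb2 over Nfkb1 was at -1.08, -1.41 and -1.06 against -0.43, -0.44 and -0.77. The ratio of the non-canonical to the canonical precursor gene was thus 1.55 times its saline value. Tnfaip3 over Rela was at 1.67 times and Nfkbia over Rela at 1.35 times the saline value. Saline mouse 2, in which the log2 ratio of Nfkbia to Rela was 1.91, came close to PD mouse 1 at 1.97. Nfkbiz over Nfkbia was at 1.36 times its saline value. Nfkbib over Nfkbia was at 0.568 times its saline value. Relb over Rela overlapped between the groups, with a difference of 0.21 on the log2 scale (p = 0.2, exact permutation test), which was 0.13 without PD mouse 2.

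**Figure D4:**
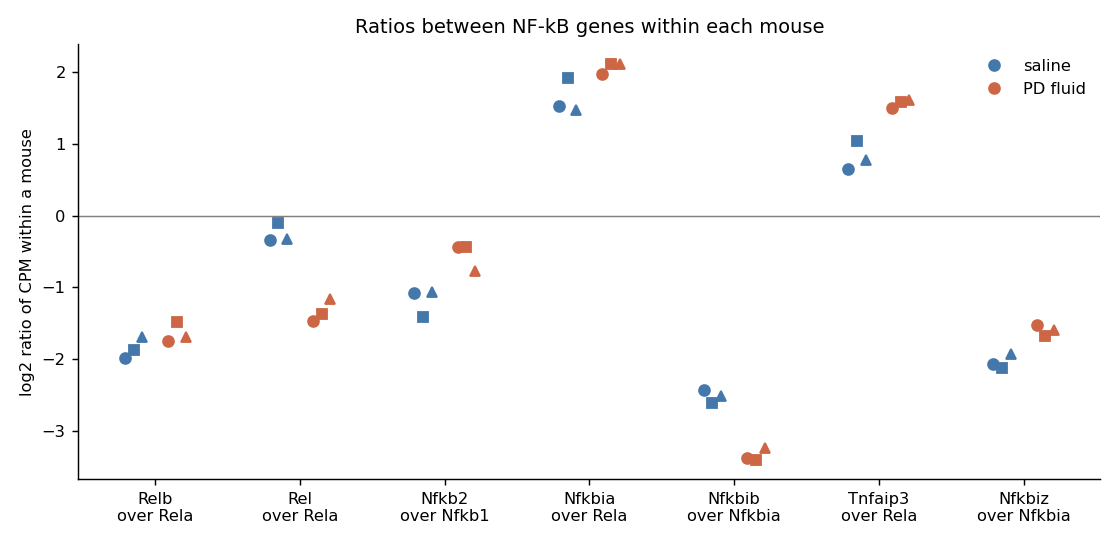
Each point is the log2 ratio of the CPM of 2 genes in 1 mouse, blue for saline and orange for PD mice, with circle, square and triangle for replicates 1, 2 and 3. The groups are separate for every ratio but Relb over Rela, and the widest gap is that of Rel over Rela.

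Other genes of the pathway were counted in lists that hold no member, 89 genes in all. With TMM, 47 of them rose, 23 fell and 19 did not pass the test (edgeR), at a median log2 fold change of 0.39, whereas endothelial marker scaling gave 23 higher and 53 lower. The lists are given by role, and their counts stand beside the 31.1% of all tested genes that rose and the 27.8% that fell. Among 22 textbook targets of NF-kB, 21 rose and none fell, with a median of 1.37 (13 higher and 5 lower with endothelial marker scaling). The largest rises were those of Cxcl2, a neutrophil-attracting chemokine, at 3.43, of F3, the coagulation initiator tissue factor, at 3.13, and of Sele, the endothelial leukocyte adhesion molecule E-selectin, at 3.04. Cxcl2 went from 12.9 ± 1.92 to 138 ± 9.06 CPM (SD, n = 3 each) and Sele from 4.70 ± 0.268 to 38.8 ± 3.23 CPM. F3 started from a low level and went from 1.58 ± 0.678 to 13.9 ± 0.535 CPM. Its log2 fold change ran from 2.95 without saline mouse 1 to 3.54 without saline mouse 3. Bcl2a1b, named after its value was seen, was the target that missed the threshold, at 0.11. A consensus site lay in the promoter windows of 10 of the 19 targets that had one, against 6.29% of the tested genes with a window.

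Of 11 ligands, 7 rose and 3 fell with TMM, with a median log2 fold change of 0.85 (4 higher and 4 lower with endothelial marker scaling). The 3 largest rises were those of Il1a, Tnf and Il1b, cytokines that switch on the canonical pathway. On the log2 scale Il1a rose by 2.94 ± 0.10 (SE, adjusted p = 2.41e-09, edgeR), Tnf by 2.66 ± 0.11 (adjusted p = 9.82e-09) and Il1b by 2.41 ± 0.089 (adjusted p = 3.72e-09). Tnf was at 7.40 ± 1.02 CPM in saline and 46.7 ± 0.678 CPM in PD mice (SD, n = 3 each). The lymphotoxin genes, which encode cytokines of lymphocytes, fell. Ltb fell by 0.72 and Lta fell by 0.69 on the log2 scale. Other ligands, named after their values were seen, rose with TMM, Tnfsf12 by 1.70, Tnfsf13b by 1.24, Tnfsf14 by 0.85 and Tnfsf11 by 0.53. Il18, likewise named afterwards, did not pass the test (0.17, adjusted p = 0.325, edgeR). Cd40lg, the T cell ligand of CD40, fell by 0.42, a call that was lost without saline mouse 2 (adjusted p = 0.154) and without each PD mouse in turn (adjusted p between 0.0536 and 0.118, edgeR).

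Of 12 receptors, 9 rose and 3 fell with TMM, with a median of 0.99 (4 higher and 4 lower with endothelial marker scaling). Tlr2, a sensor of bacterial lipoproteins, rose from 26.2 ± 0.505 to 118 ± 4.22 CPM (SD, n = 3 each), a log2 fold change of 2.17. The TNF receptor gene Tnfrsf1a rose by 1.43 and Ltbr, the lymphotoxin beta receptor, by 1.32. By contrast Tnfrsf13c, the BAFF receptor of B cells, fell from 324 ± 17.8 to 169 ± 4.57 CPM, a log2 fold change of -0.94, and Cd40, a receptor of B cells and other antigen-presenting cells, had one of -0.75. Both receptors fell together with the B cell markers given above, and the part of those markers was not tested. The rises of targets, ligands and receptors stood beside those of the macrophage, monocyte and neutrophil markers given above (8 of 8 and 5 of 6 tested markers higher). Endothelial (11 of 12), mesothelial, fibroblast, mural cell and acinar markers were higher in the same PD mice as well. The part of any of these cell types in the rises was not tested. Il1rap, the accessory chain of the IL-1 receptor, fell by 0.26, a call lost without saline mouse 2 or 3 or PD mouse 1 or 2 (adjusted p between 0.0636 and 0.132, edgeR).

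Of 16 adaptors and ubiquitin ligases 4 rose and 10 fell, with a median of -0.24 (1 and 15 with endothelial marker scaling). Without PD mouse 2, 6 fell, and without saline mouse 1 or saline mouse 2, 2 rose. Traf5, a TNF receptor adaptor, had a log2 fold change of -0.72, Sharpin, part of the linear ubiquitin ligase, one of -0.46 and Tradd, the adaptor of TNF receptor 1, one of -0.41. Card10, a scaffold used outside lymphocytes, rose by 1.55, and Bcl10, its partner, by 0.33 (-0.59 with endothelial marker scaling). Rnf31, the catalytic subunit of the linear ubiquitin ligase, rose by 0.41 (adjusted p = 0.0478, edgeR), a call that was lost without saline mouse 1 or 2 or PD mouse 1 (adjusted p between 0.0629 and 0.238, edgeR) and with upper quartile scaling (adjusted p = 0.0542), and that turned to -0.50 with endothelial marker scaling.

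In the kinase list of 14 genes, 2 rose and 5 fell, with a median of -0.03 (none higher and 14 lower with endothelial marker scaling), and 3 fell without saline mouse 1. The median ran from -0.15 without PD mouse 1 to 0.04 without PD mouse 2. Ripk1, the kinase recruited to TNF receptor 1, rose by 0.55 and Irak2, a kinase of IL-1 and Toll-like receptors, by 0.46, whereas endothelial marker scaling gave -0.37 and -0.46. Besides Ikbkg and Chuk, Tab1, a partner of the kinase TAK1, fell, with a log2 fold change of -0.61.

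Of 14 further IkB family and feedback genes, 4 rose, 2 fell and 8 did not pass the test, with a median of 0.14 (1 higher and 11 lower with endothelial marker scaling). Tnip3, a partner of A20, reached 14.2 ± 2.58 CPM in PD mice (SD, n = 3), a log2 fold change of 1.83. N4bp1, a regulator of NF-kB signalling, rose by 0.74 and Bcl3, a nuclear IkB protein, by 0.41, whereas endothelial marker scaling gave -0.17 and -0.50. Otulin, which removes linear ubiquitin chains, fell by 0.70 on the log2 scale, and Cyld, another deubiquitinase that restrains NF-kB, fell by 0.29.

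**Figure D5:**
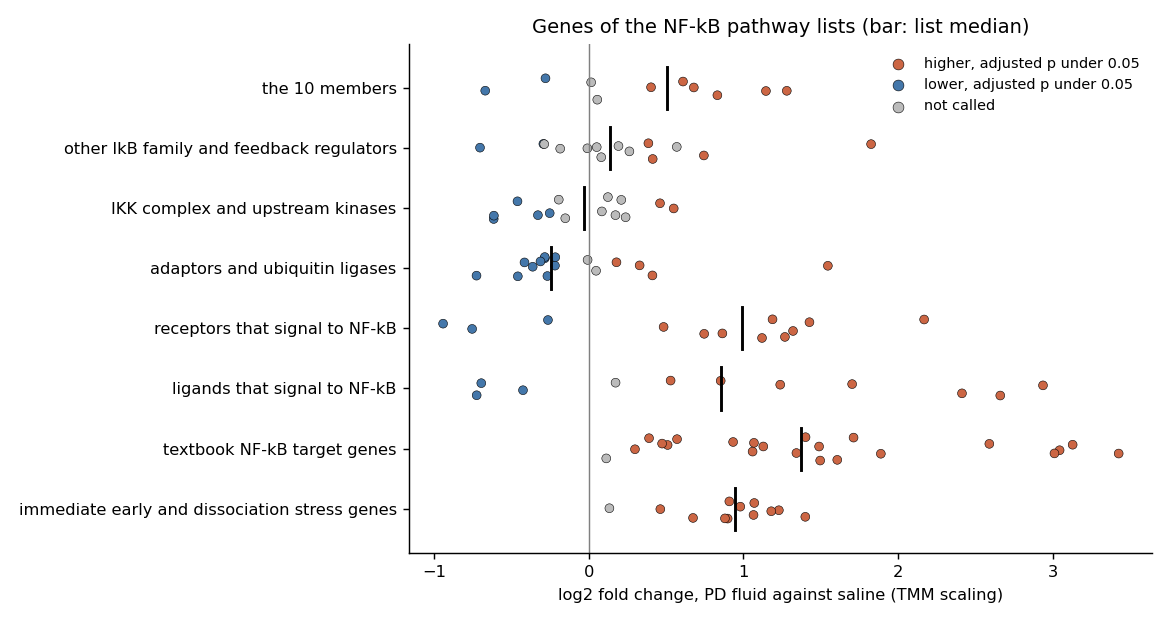
Points are log2 fold changes of single genes, PD against saline mice with TMM scaling, in orange where higher, in blue where lower and in grey where the adjusted p was not under 0.05, and black bars are list medians. Targets have a median of 1.37 (0.46 with endothelial marker scaling), and adaptors and ubiquitin ligases one of -0.24 (-1.16 with endothelial marker scaling).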

How the data were processed

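Libraries were made with a poly(A) selection kit and sequenced on an Illumina NovaSeq instrument. The submitters' processing notes name fastp 0.18.0, Bowtie2 2.2.8, HISAT2, StringTie and RSEM, with no role. The genome build and annotation are not given in the sources used here. The authors deposited 1 table of 22183 genes with unnormalized read counts per mouse, whole numbers that may be rounded estimates since RSEM is named, and FPKM values computed by the authors. The table also holds the authors' group means, log2 ratio, p-value and FDR, which were not used. No sample column was left unmatched (0).

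Counts were filtered with filterByExpr, scaled by TMM and tested across 14005 genes with edgeR 4.0.16 (glmQLFit, glmQLFTest, R 4.3.3), with PD fluid against saline as the only term and an adjusted p threshold of 0.05 (Benjamini-Hochberg). The study names limma, which was run as the alternative limma-voom (limma 3.58.1). Standard errors (SE) are the log2 fold change divided by the square root of the F statistic, and 95% intervals from the normal distribution. The test was also run on simulated counts with 200 genes changed, as many up as down. That setting lacks the wide changes of these data and cannot vouch for the scaling here. Marker lists were scored as the mean of log2(CPM + 1) and summed in CPM. Replicates are separate mice, and their counts differed by more than sampling noise.

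Alternatives were DESeq2 1.42.0, limma-voom, RLE and upper quartile factors, scaling to 12 endothelial markers, no filter, the replicate number as a block, leaving out each mouse, FPKM for ratios and a pseudocount of 0.1. The members and lists were chosen with earlier results of these data known. Named beside the 10 members are, per list, up to 3 genes with the largest rise and up to 3 with the largest fall that passed the test and averaged 10 counts or more. Promoter windows are from RefSeq (GRCm38.p6), whatever the build of the counts. No set test was run.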

Additional observations from a re-analysis of the deposited data

How the results depend on the processing

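With TMM, RLE or upper quartile scaling, DESeq2, limma-voom, no filter, the replicate block and each mouse left out in turn, 6 members were higher and 2 lower each time. Scaling to 12 endothelial markers gave 2 higher and 6 lower members, 23 higher and 53 lower pathway genes, and 1252 higher and 9896 lower genes in all. Under it the log2 fold change turned to -0.51 for Rela, -0.30 for Relb, -0.86 for Nfkb1, -0.23 for Nfkb2, -0.088 for Nfkbia and -0.90 for Nfkbib, by construction, since those markers rose. Nfkb1, which did not pass the test, ran from -0.014 (without saline mouse 2) to 0.12 over the fits that lacked 1 mouse, and Nfkbib from -0.050 (without saline mouse 3) to 0.079. Without each mouse in turn, pathway genes called ran from 44 to 50 higher and from 16 to 20 lower, and genes in all from 3852 to 4333 higher and from 3121 to 3685 lower. The replicate block called 7909 genes (4242 higher and 3667 lower), with 48 higher and 21 lower pathway genes, and lost the call of Il1rap (adjusted p = 0.0522, edgeR). The sample titles give no pairing beyond the number. Deviations of same-numbered mice from the group means correlated at 0.19, 0.07 and -0.27, and not every mouse correlated best with its own number. With so few mice this cannot exclude a pairing. With a pseudocount of 0.1 in place of 1 CPM, the score difference between PD and saline mice was 2.15 for macrophage and monocyte, 2.95 for neutrophil, 3.32 for mesothelial, 3.03 for fibroblast, 1.57 for pericyte and smooth muscle and 9.36 for acinar markers, all larger than with 1. The order of members by FPKM kept at least 8 of 10 places without any 1 mouse of a group. Every member had at least 564 reads in each mouse.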

Other observations

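Within the saline group, mouse 2 had the lowest CPM of the 3 mice for Rela (95.3), Relb (26.0), Nfkb1 (153) and Nfkb2 (57.7) and the highest for Nfkbia (358), Tnfaip3 (195) and Nfkbiz (82.2). In the PD group, mouse 1 had the highest values of Rela (152), Nfkb1 (190.0), Nfkb2 (141), Nfkbiz (208) and Tnfaip3 (428). Without saline mouse 2 the log2 fold change of Nfkb2 was 0.52, and without saline mouse 3 it was 0.81, both past the threshold in edgeR's test (adjusted p = 0.00189 and 0.00187).

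Among the immediate early and stress genes, Zfp36, which encodes an RNA-binding protein that destabilises cytokine transcripts, rose from 486 ± 48.4 to 1284 ± 157 CPM (SD, n = 3 each). On the log2 scale it rose by 1.40 ± 0.098 (SE, adjusted p = 6.20e-07, edgeR). Atf3, a stress-induced transcription factor, rose by 1.23, and the heat shock gene Hspa1a by 1.18, a value that is uncertain because its near-identical copy may take part of its reads. With endothelial marker scaling the 3 values were 0.48, 0.31 and 0.26. That copy, Hspa1b, named after its value was seen, was at 0.13 and did not pass the test. The median of the 12 genes was 0.94, beside 0.99 for the 4 inhibitor and feedback members and 0.40 for the 5 subunits.

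Consensus sites were also found in the promoter windows of 7 of 13 further IkB family and feedback genes, 1 of 13 kinases, 1 of 12 adaptors and ubiquitin ligases, 2 of 10 receptors and 1 of 9 ligands, where 6.29% of the tested genes with a window held one. The shares of the kinases (7.69%) and of the adaptors and ubiquitin ligases (8.33%) lay near that of the tested genes.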
